A study of Homo sapiens with 24 samples.

Results

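A form of the transcription coactivator MRTF-A titled dSAP was overexpressed and compared with a control line in plate culture, using 6 of the 24 sequenced RNA libraries of the series: 3 titled dSAP MRTF-A OX and 3 titled Control. The cells were MDA-MB-231, an established human breast cancer line with mesenchymal features, grown in medium with 10% fetal bovine serum and antibiotics. Both lines are labelled as having received 1 ug/ml doxycycline for 72 h, the agent that induced MRTF-A, so the control libraries carry the drug as well. The labels do not spell out dSAP, give the vector of the control line, or say whether a line is 1 clone. Nor do they say whether the 3 libraries of a group came from separate cultures, so p-values measure the spread between these libraries, which may be technical. Libraries were chosen by title: the genotype field names another line for 2 of the 3 control and 2 of the 3 dSAP libraries. The lines titled WT MRTF-A OX and dSRF MRTF-A OX in plates, and control and dSAP on matrigel, a basement membrane gel, with the same drug labels and 3 libraries each, served as comparisons. The matrigel cultures were given 2% matrigel.

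MRTF-A (gene MRTFA) binds actin monomers in the cytoplasm, and when these are used up by filament assembly it enters the nucleus and joins the transcription factor SRF. SRF binds a short A/T-rich element, the CArG box, found near many genes for actin, myosin, and their binding proteins, and MRTF-A itself carries a SAP domain, a fold known from DNA-binding nuclear proteins. In cancer lines this axis is known for its link to contractility, adhesion and matrix.

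Depth was similar in both groups, with 15536787 to 20672111 estimated counts in the control libraries and 16242207 to 19022390 in the dSAP libraries. Replicates differed from each other by more than counting noise, with a chi-square per degree of freedom of 3.81 to 7.71 over the 6 pairs, and none was dropped. The line's own markers were present in all 6 libraries: 8 of 8 markers of MDA-MB-231 averaged at least 1 TPM (a share of transcripts scaled by length), with a summed level of 6641 to 7053 TPM in control and 6131 to 6162 in dSAP. Markers of B lymphocytes summed to at most 1.26 TPM and those of T and NK lymphocytes to at most 4.19 TPM.

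MRTFA, the induced gene (ENSG00000196588, chromosome 22, 40410281 to 40636702, minus strand, GRCh38), was measured at 33.8, 37.1 and 37.7 CPM (counts scaled to library size) in the control libraries and at 8499, 9322 and 8757 CPM in the dSAP libraries. The groups were far apart. The difference was 7.94 ± 0.06 on the log2 scale (log2 fold change and its standard error, with 3 libraries in each group). The spread behind each standard error and p-value was estimated over the 12 plate libraries of 4 groups, WT and dSRF among them. Reads of the introduced gene and of the cell's own gene cannot be told apart in these tables. In the WT line MRTFA stood at 4586 ± 187 CPM (mean ± SD, n = 3) and in the dSRF line at 3135 ± 103 CPM, so the dSAP libraries held the highest level of the induced RNA. Its paralogue MRTFB was at 39.1 ± 1.1 CPM in control and 33.8 ± 0.685 in dSAP, a change of -0.21 ± 0.06 that was called on counts and not on TPM values (adjusted p up to 0.554).

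The plate libraries of the dSRF line held low levels of several genes that were near absent in control and present in dSAP. Most of these genes were present in WT too. ACTG2 averaged 1060 CPM there, LMOD1 105, MYL7 46.9, GARIN1B 36.9, ACTC1 21.4 and NHSL2 4.08. ALX1 had 0 counts in control and in WT but 0.337, 0.406 and 0.601 CPM in the dSRF libraries, beside 7.08, 8.71 and 7.19 in dSAP. Genes were chosen after their values were seen: at most 10 summed counts in control and at least 5 CPM in dSAP. KRT17 met this rule but was left out: dSRF libraries 1, 2 and 3 held 99.1%, 108% and 117% of its dSAP level. Over the other 7 genes, ACTC1, ACTG2, ALX1, GARIN1B, LMOD1, MYL7 and NHSL2, these libraries held a median of 3.67%, 5.3% and 8.76% of the dSAP level. With KRT17 the medians were 3.91%, 5.3% and 9.04%. The reverse was not seen: of 6 genes with at least 25 CPM in dSRF and 0 counts in control, 5 had 0 counts in dSAP and the other had 5. The cause of these low levels was not tested, and they bear on each difference between dSAP and dSRF given here.

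Of 14330 genes with enough counts to be tested, 6992 (48.8%) passed an adjusted p of 0.05 between dSAP and control, and such genes are called here. The test was edgeR's quasi-likelihood test with Benjamini-Hochberg adjustment over all genes. Higher in dSAP were 3620 genes (25.3%), and lower were 3372 (23.5%). Large changes leaned upward: 596 genes (4.16%) rose and 336 (2.34%) fell by at least 2-fold, 82 rose and 19 fell by at least 8-fold, and 49 rose and 9 fell by at least 16-fold. Because nearly 1 gene in 2 was called, the count of called members of a group is read against these shares, and the size of the change carries more than the call. Over all genes the median log2 fold change was -0.0028, and the replicates of 55.3% of genes did not overlap between the groups. Most genes named here were chosen on the condition that their replicates did not overlap. For such genes, separate groups therefore lend no added support. A fit across all 24 libraries called 4937 genes, and 7178 once library 1 of the dSRF line on matrigel, which held MRTFA at 664 CPM against 4840.3 and 4857 in libraries 2 and 3 of its group, was left out. With all 24 libraries the calls shrank by over 1.5 times in several lists described here, and the larger of those shifts are given beside the lists. Without that 1 library each of those counts was within 2 genes of the one given for dSAP against control. Of the genes named here for that comparison, ADAMTS1, CDC20, COL1A1, EHD2, EREG, F3, H2AC11, HBEGF, IL24, KIF11, MCM5, MCM7 and RRM2 passed in every fit run except the one on all 24 libraries. The plot of change against level shows where the groups described below lay.

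**Figure D1:**
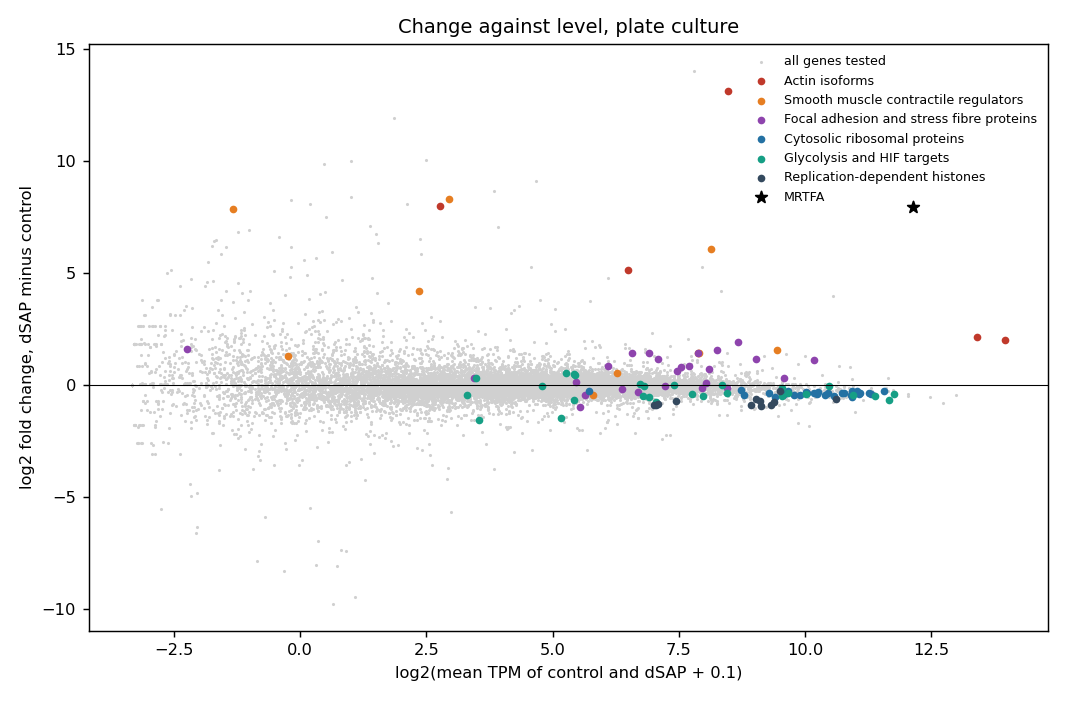
Each point is a gene: x axis, log2 of its mean TPM over the control and dSAP libraries plus 0.1; y axis, log2 fold change of dSAP over control in plates. Actin isoforms and contractile regulators lie mostly above 1, MRTFA (star) at 7.94. Ribosomal proteins (median -0.35) and, further down, histones (median -0.79) lie below 0.

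Every actin isoform that could be tested rose. Actins are the filament proteins whose monomers hold MRTF-A back, and the muscle isoforms are classic SRF targets. All 5 of 5 tested isoforms were higher (25.3% of all genes were), with a median of 5.15, against -0.0028 for all genes. ACTG2, enteric smooth muscle gamma actin (ENSG00000163017, chromosome 2, 73892314 to 73919865, plus strand), was at 0.0939, 0 and 0.0524 CPM in control, 3 counts over the group, and at 476, 592 and 527 CPM in dSAP. ACTC1, cardiac alpha actin, was at 0.0469, 0.0621 and 0.0524 CPM in control, again 3 counts, and at 15.8, 16.3 and 14.6 in dSAP. Both were near absent in control and present in every dSAP library, so no fold is given for them. ACTA2, vascular smooth muscle alpha actin, was at 3.15, 2.79 and 3.78 CPM in control and 92.4, 132 and 123 in dSAP, a rise of 5.15 ± 0.25 (adjusted p = 3.06e-07).

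Per length, the cytoplasmic actins were the most abundant, with ACTB at 25558 ± 1113 TPM in dSAP, ACTG1 at 17686 ± 506 and ACTG2 at 712 ± 58.9 (mean ± SD, n = 3). ACTB, beta actin, was at 5534, 5450 and 5672 CPM in control and 21340, 23860 and 22590 in dSAP, a rise of 2.02 ± 0.08 (adjusted p = 2.08e-10). ACTG1, cytoplasmic gamma actin, was at 2899, 2695 and 2866 and 12120, 13080 and 12700 CPM, a rise of 2.16 ± 0.14. No dSAP library came near a control library for either gene. Summed over the isoforms, actin RNA went from 10040 to 10560 TPM in control to 42330 to 45690 TPM in dSAP. Actin genes are alike in their coding sequence and have many processed copies, so the split of reads between isoforms is uncertain. The 10 most abundant genes of a library took 3.80% to 4.02% of its counts in control and 6.64% to 7.12% in dSAP.

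Several of these genes have a CArG box just before their start, and those stretches are shown because they hold the element that SRF is known to bind. The 130 bases before the start are given 5′ to 3′ from RefSeq on GRCh38.p14, with the CArG box in capitals. They are shown for named genes of the actin, contractile or SRF groups that were found to carry it there. The promoter sequences used held none for ACTB, TAGLN and MYL9, among others, so these genes were not searched.
ACTG2 (chr2:73892878-73893007, plus strand): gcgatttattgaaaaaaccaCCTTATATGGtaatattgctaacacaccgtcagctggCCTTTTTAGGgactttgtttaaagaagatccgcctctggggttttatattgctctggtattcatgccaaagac
ACTC1 (chr15:34795550-34795679, minus strand): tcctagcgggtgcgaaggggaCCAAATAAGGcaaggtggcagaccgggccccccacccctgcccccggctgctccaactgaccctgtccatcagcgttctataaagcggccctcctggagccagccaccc
ACTG1 (chr17:81512800-81512929, minus strand): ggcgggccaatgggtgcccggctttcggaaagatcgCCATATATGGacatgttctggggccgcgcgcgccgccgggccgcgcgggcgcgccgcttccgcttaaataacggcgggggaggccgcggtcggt
MYL7 (chr7:44141333-44141462, minus strand): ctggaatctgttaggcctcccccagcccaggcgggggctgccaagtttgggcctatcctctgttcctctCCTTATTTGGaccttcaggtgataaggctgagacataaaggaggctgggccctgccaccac
CNN2 (chr19:1026478-1026607, plus strand): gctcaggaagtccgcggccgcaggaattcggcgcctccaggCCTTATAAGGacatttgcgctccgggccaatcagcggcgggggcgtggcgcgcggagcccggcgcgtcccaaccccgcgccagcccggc
SRF (chr6:43171139-43171268, plus strand): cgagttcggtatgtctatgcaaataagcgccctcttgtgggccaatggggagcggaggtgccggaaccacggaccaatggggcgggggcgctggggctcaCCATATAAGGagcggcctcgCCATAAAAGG
FHL2 (chr2:105438514-105438643, minus strand): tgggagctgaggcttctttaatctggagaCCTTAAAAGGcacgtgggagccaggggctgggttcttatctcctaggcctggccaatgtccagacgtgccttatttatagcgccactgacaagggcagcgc

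ACTG2 and SRF each hold 2 boxes in these stretches, beginning 110 and 73 bases before the start in ACTG2 and 30 and 10 bases before it in SRF. In windows of 300 bases (250 before to 50 after the start, both strands searched), a CArG box was found for 118 of the 10535 tested genes with a window (1.12%), and for 351 of all 27305 windows (1.29%). Among genes that rose at least 2-fold it was found in 24 of 428 (5.61%), and among genes that fell at least 2-fold in 2 of 194 (1.03%). Only 71.8% of the former genes and 57.7% of the latter had a window, too few for a check of the sets, which is therefore void; the shares describe the matched genes alone. TGANTCA, the element of AP-1, was found in 39 of the 428 (9.11%, against 4.68% of tested genes with a window), GGAATG, that of TEAD, in 57 (13.3%, against 10.9%), and TGACGTCA, that of CREB, in 12 (2.8%, against 3.23%). Over all windows these 3 were found in 7.76%, 14% and 1.98%. Matches of different motifs may share bases, as the CArG box and GGAATG do in GARIN1B. Named genes that rose and held no CArG box in their window include LMOD1, CALD1, VCL, MYL6 and MYL12A. A box was found in the histone gene H2BC21 and in HLA-DRB1 (MHC region, uncertain), which fell. Among genes that rose, GARIN1B, GBP1, ISG15 and TPM4 held a box as well. A match is not a bound site.

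Light chains of myosin II were the chains that rose. Myosin II pulls on actin filaments, and its light chains set when it does so. Of 9 tested chains 4 rose and 0 fell, with a median of 0.45. MYL7, the atrial light chain (ENSG00000106631, chromosome 7, 44138864 to 44141332, minus strand), had 0 counts in all 3 control libraries and stood at 108, 138 and 118 CPM in dSAP, at least 2287-fold higher (against a floor of 3 counts over the control group). MYL9, the regulatory light chain of smooth muscle and nonmuscle cells, was at 143, 142 and 139 CPM in control and 2141, 2413 and 2151 in dSAP, a rise of 3.98 ± 0.18. All dSAP values lay far above all control values. The essential light chain MYL6 rose by 0.86 ± 0.05 and MYL12A by 0.45 ± 0.04.

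Regulators of the smooth muscle thin filament rose with the actins. Of 10 tested members 9 rose and 1 fell, with a median of 1.50. TAGLN, transgelin, which crosslinks actin, was at 4.6, 5.15 and 3.67 CPM in control and 298, 314 and 303 in dSAP, a rise of 6.10 ± 0.25 (adjusted p = 1.08e-07). LMOD1, leiomodin, which starts new filaments in smooth muscle, was at 0.188, 0.124 and 0.0524 CPM in control, 7 counts over the group, and at 34.3, 48 and 41.9 in dSAP, a rise of 8.30 ± 0.38. CNN1, the calponin of differentiated smooth muscle, rose by 4.22 ± 0.30 from 0.479 ± 0.359 to 9.06 ± 0.494 CPM, and CNN2, its widely expressed relative, by 1.57 ± 0.04 from 369 ± 7.35 to 1092 ± 16.4 CPM. Each of these groups of libraries was separate from its counterpart, which for LMOD1 and CNN2 was a condition of choosing them. CALD1, caldesmon, rose by 1.43 ± 0.03 and CSRP1, a LIM protein of smooth muscle, by 1.44 ± 0.05. KCNMB1, which tunes a smooth muscle potassium channel, had 0 counts in control and 1.94, 1.38 and 1.63 CPM in dSAP, at least 31.1-fold higher. TPM1, TPM2 and TPM4, tropomyosins that lie along the filament, rose by 1.12 ± 0.06, 1.44 ± 0.12 and 0.94 ± 0.04, which is 3 of the 4 tested.

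**Figure D2:**
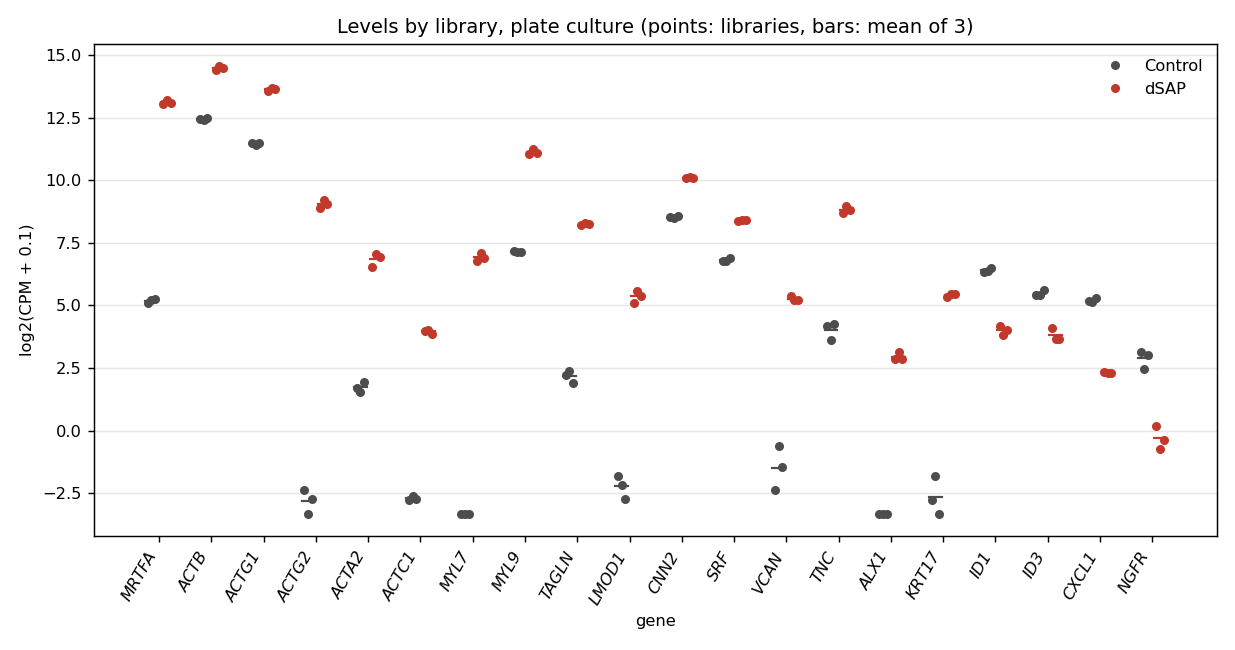
Points are single libraries and bars the mean of 3, as log2(CPM + 0.1), for 20 of the named genes in control (grey) and dSAP (red). ACTB and ACTG1 were already abundant in control, while ACTG2, ACTC1, MYL7, LMOD1, VCAN, ALX1 and KRT17 sit at or near the bottom of the axis in control only; ID1, ID3, CXCL1 and NGFR are lower in dSAP.

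SRF itself rose, with small changes in most of its partners. SRF (ENSG00000112658, chromosome 6, 43171299 to 43181507, plus strand) was at 108, 108 and 118 CPM in control and 332, 343 and 341 in dSAP, with no overlap, a rise of 1.60 ± 0.05. FHL2, a LIM protein that binds SRF, rose by 1.14 ± 0.05 and ELK4, a ternary complex factor, by 0.19 ± 0.04. Over the list of MRTF, SRF and ternary complex factors 5 of 8 tested rose, MRTFA among them, and 2 fell.

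Focal adhesion and stress fibre genes were mostly higher. These proteins tie actin bundles to integrins at the cell base. Of 25 tested members 16 rose and 5 fell, with a median of 0.72. ZYX, zyxin, which gathers where fibres are under tension, was at 144, 148 and 144 CPM in control and 562, 559.7 and 545 in dSAP, a rise of 1.93 ± 0.04. VCL, vinculin, was at 611, 613 and 635 and 984, 1053 and 1021 CPM, a rise of 0.72 ± 0.04, and ACTN1, the bundling protein alpha-actinin-1, was at 678, 721 and 707 and 1517, 1618 and 1561 CPM, a rise of 1.16 ± 0.04. In all 3 genes the groups did not overlap, which for ZYX and ACTN1 was a condition of choosing them. PDLIM7 and TGFB1I1, LIM proteins of stress fibres and adhesions, rose by 1.57 ± 0.05 and 1.46 ± 0.05.

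Most genes that turn actin filaments over moved by smaller amounts. Of 20 tested 13 rose and 3 fell, with a median of 0.29. The exception in size was LCP1, the bundling protein plastin-2 of blood cells and many tumours (named after its values were seen), at 27.2, 23.4 and 25.2 CPM in control and 953, 1049 and 983 in dSAP, a rise of 5.29 ± 0.15. The severing proteins DSTN (1.30 ± 0.04) and CFL2 (1.14 ± 0.04) came next, followed by CAP1 (0.79 ± 0.03) and WDR1 (0.70 ± 0.03), which help them recycle monomers. PFN1, profilin, which carries monomers to growing ends, rose by 0.34 ± 0.05. TMSB4X, thymosin beta 4, which stores monomers, fell by 0.52 ± 0.11 from 6683 ± 682 to 4684 ± 104 TPM. In the Arp2/3 complex, which branches filaments, 6 of 9 subunits rose and 2 fell. ACTR3 rose by 0.93 ± 0.04, ARPC5 by 0.88 ± 0.04, ACTR2 by 0.49 ± 0.04 and ARPC4 by 0.43 ± 0.04. VAV1, a Rac exchange factor usually found in blood cells, was at 3.57, 4.34 and 3.62 CPM in control and 12.4, 11.9 and 10.7 in dSAP, a rise of 1.61 ± 0.14, while the widely expressed VAV2 fell (-0.51 ± 0.05).

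Targets shared with YAP and TEAD, transcription factors that also answer to cell tension, were split. Of 22 tested 9 rose and 7 fell, with a median of 0.09 (5 and 2 in the fit on all 24 libraries). CCN1 and CCN2, secreted matrix proteins that SRF is known to drive too, rose by 0.80 ± 0.05 and 1.74 ± 0.07: CCN1 was at 1361, 1433 and 1358 CPM in control and 2326, 2382 and 2543 in dSAP, and CCN2 at 69, 74.4 and 74 and 229.5, 245 and 253 CPM. NUAK2, a kinase, rose by 1.10 ± 0.07 and CRIM1 by 0.50 ± 0.05.

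ID1 and ID3, inhibitors of bHLH transcription factors that BMP signals induce, were among the clearest falls. ID1 (ENSG00000125968, chromosome 20, 31605283 to 31606515, plus strand) was at 79.8, 83.8 and 88.8 CPM in control and 18.2, 14 and 15.9 in dSAP, a change of -2.39 ± 0.09 (adjusted p = 6.92e-13). ID3 was at 42.5, 42.2 and 49.3 CPM in control and 17.2, 12.6 and 12.5 in dSAP, a change of -1.66 ± 0.10. ATOH8, a bHLH factor that also answers to BMP, was at 5.21, 7.45 and 7.71 and 1.31, 0.815 and 1.07 CPM, a change of -2.65 ± 0.25. Every dSAP library lay below every control library in these 3 genes, which were chosen on the condition of separate replicates. Over the BMP and TGF-beta list 8 of 14 tested fell and 3 rose, with a median of -0.27; the receptor TGFBR1 fell (-0.40 ± 0.04).

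Matrix genes rose more often than they fell, led by VCAN, almost absent in control. Of 26 tested 15 rose and 7 fell, with a median of 0.25. VCAN, the proteoglycan versican, was at 0.0939, 0.559 and 0.262 CPM in control and 41.3, 36.6 and 37.5 in dSAP, a rise of 7.04 ± 0.35. TNC, tenascin-C, an adhesion-modulating glycoprotein, was at 17.8, 12 and 19.3 CPM in control and 416, 503 and 444 in dSAP, a rise of 4.78 ± 0.25. The 2 groups stood apart in both, which for VCAN was a condition of choosing it. COL3A1, a fibrillar collagen, rose by 3.83 ± 0.30 from 0.29 ± 0.0729 to 4.16 ± 0.45 CPM, and the basement membrane genes COL4A1 and LAMB1 by 0.87 ± 0.04 and 0.58 ± 0.04. COL1A1 rose by 0.98 ± 0.09, from 10.1 ± 1.13 to 19.9 ± 0.871 CPM. The markers of fibroblasts and pericytes summed to 28.0 to 36.5 TPM in control and 42.4 to 47.7 TPM in dSAP; 2 of the 8 were at 0 in all 6 libraries, and 3 of the 5 tested rose. These were COL3A1, COL1A1 and LUM, which belong to matrix too, and LUM was not called on TPM values (adjusted p up to 0.135). Their part in the matrix changes was not tested.

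Integrins and proteases went both ways. Of 14 tested integrin subunits 4 rose and 4 fell, shares close to those over all genes (25.3% and 23.5%). ITGB3, the beta subunit of a vitronectin receptor, was at 16.5, 17.2 and 16.1 CPM in control and 100.4, 115 and 112 in dSAP, a rise of 2.72 ± 0.11. ITGB4, which anchors epithelial cells to laminin, fell (-0.70 ± 0.05, from 378 ± 15 to 233 ± 17 CPM), as did ITGB5 (-0.52 ± 0.04) and the leukocyte subunit ITGB2 (-1.61 ± 0.12). Among matrix proteases and their inhibitors 6 of 15 rose and 5 fell: PLAT, tissue plasminogen activator, fell (-1.45 ± 0.07), while SERPINE2, an inhibitor of such proteases, rose by 2.77 ± 0.26, ADAMTS1 by 1.07 ± 0.09 and MMP24 by 1.41 ± 0.11. F3, tissue factor, which starts clotting, rose by 1.29 ± 0.09, from 584 ± 45.3 to 1458 ± 46.8 TPM.

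Keratins, the intermediate filaments of epithelia, were nearly all higher. Of 11 tested 10 rose and 0 fell, with a median of 0.91, and 6 in the fit on all 24 libraries; on log2(TPM + 1) 8 rose and the median was 0.44. KRT17, a keratin of basal cells, was at 0.0469, 0.186 and 0 CPM in control, 4 counts over the group, and at 39.9, 44 and 44.3 in dSAP, a rise of 9.10 ± 0.20. KRT34, a hair keratin, had 0 counts in control and 2.2, 1.94 and 1.74 CPM in dSAP, at least 36.9-fold higher. KRT81, which has near-identical relatives and is uncertain, rose by 2.53 ± 0.17, and the abundant KRT8 by 0.43 ± 0.04. Among cadherins, junction proteins and EMT factors 10 of 19 rose and 1 fell (5 and 1 in the fit on all 24 libraries). The one that fell was CDH11, a cadherin of mesenchyme, at 93, 94.3 and 103 CPM in control and 38, 41.2 and 39 in dSAP, a change of -1.30 ± 0.06. CDH3, P-cadherin, rose by 2.29 ± 0.20 from 0.997 ± 0.199 to 4.96 ± 0.978 CPM, and the desmosome genes DSP and DSG2 by 0.56 ± 0.03 and 0.75 ± 0.04.

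**Figure D3:**
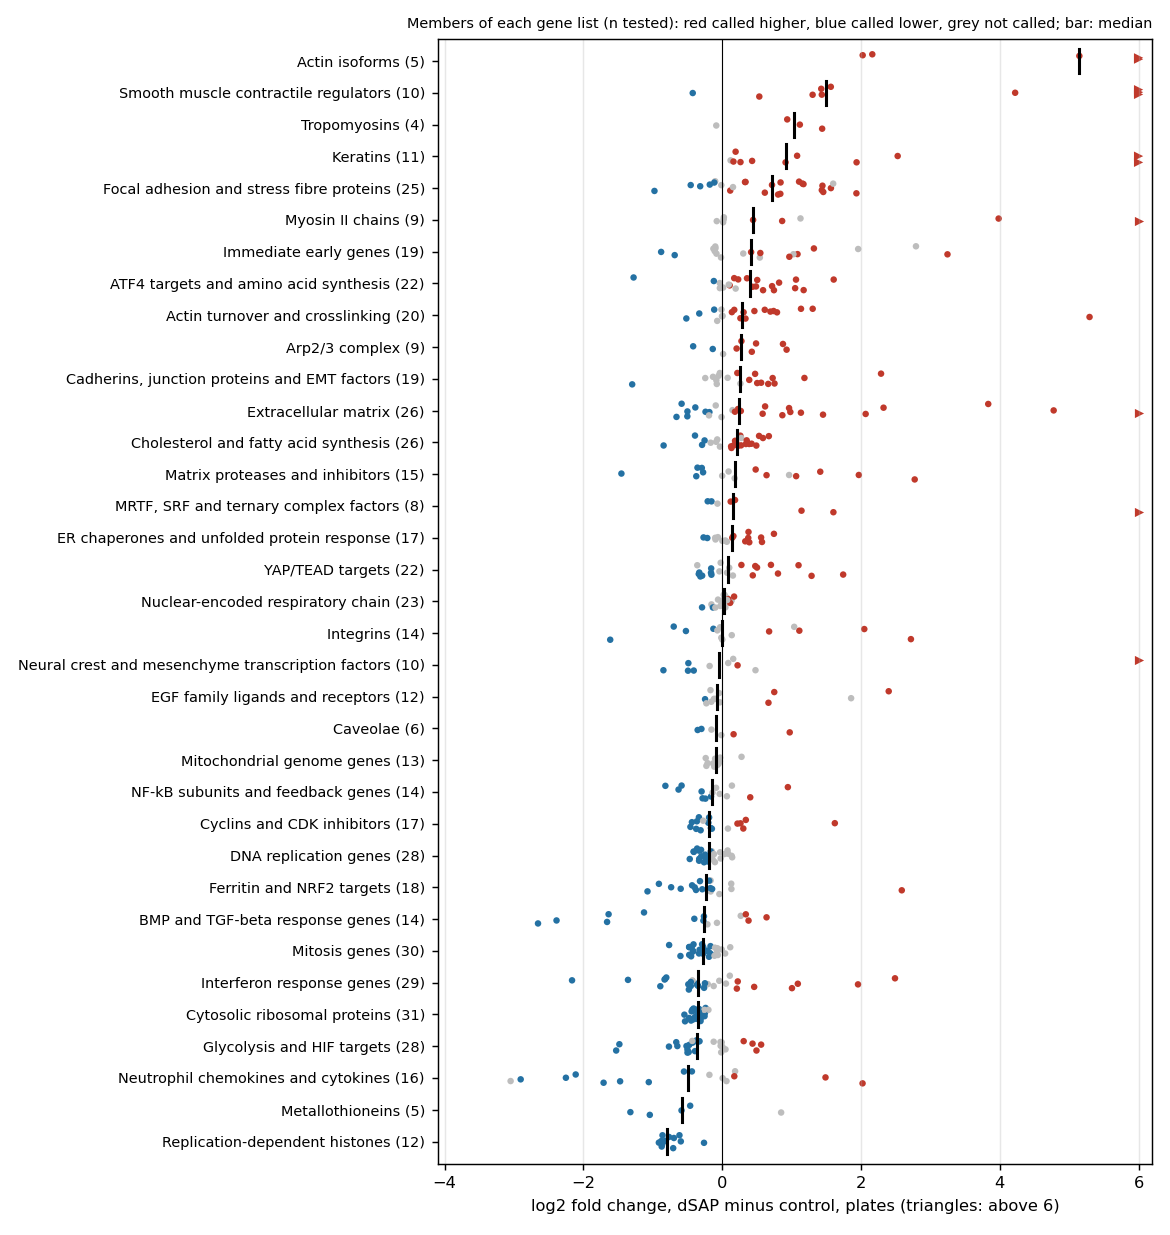
Each row is a gene list with its number of tested members; points are members by log2 fold change of dSAP over control (x axis, values above 6 drawn as triangles at 6), red called higher, blue called lower, grey not called, and the black bar is the median. Actin and contractile lists stand at the top, chemokines, metallothioneins and histones at the bottom.

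A few genes were on in dSAP and silent in control. Of the genes called higher with at least 1 CPM in dSAP, 5 had 0 counts in control: MYL7, ALX1, KRT34, KCNMB1 and CPA3. ALX1 (ENSG00000180318, chromosome 12, 85280107 to 85301784, plus strand), a homeobox factor of craniofacial mesenchyme, was at 7.08, 8.71 and 7.19 CPM in dSAP, at least 144-fold higher. CPA3, a protease of mast cells, was at 1.47, 1.32 and 1.18 CPM, at least 24.9-fold higher. GARIN1B, a testis gene, was at 0.0939, 0.0621 and 0 CPM in control, 3 counts over the group, and at 23.7, 25.8 and 23.6 in dSAP. ALX1 stood alone in size in its list: of 10 tested neural crest and mesenchyme transcription factors 2 rose and 4 fell, among them RUNX2 (-0.85 ± 0.06) and SOX9 (-0.49 ± 0.07). The other way round, TRIM26 and ATAT1 had 0 counts in dSAP and 6.22 ± 1.79 and 4.97 ± 1.3 CPM in control. Both lie in the MHC region of chromosome 6, where the reference can hold alternative copies, and are uncertain, as is HLA-DRB1 (-3.43 ± 0.40).

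The other large falls held receptors and secreted factors. NGFR, the low-affinity neurotrophin receptor, was at 8.82, 5.46 and 8.13 CPM in control and 1.05, 0.501 and 0.674 in dSAP, a change of -3.31 ± 0.31. SCNN1A, a subunit of the epithelial sodium channel, was at 22, 36.1 and 22.8 and 2.36, 4.45 and 3.54 CPM, a change of -2.97 ± 0.27. DHRS3, which reduces retinal, was at 35.3, 30.5 and 36.9 and 3.62, 5.33 and 4.89 CPM, a change of -2.90 ± 0.12. The groups did not overlap in any of these, which was a condition of choosing them. At lower levels, GIMAP8 (-3.31 ± 0.37), the glutathione-cleaving GGT5 (-2.87 ± 0.45), the ubiquitin ligase RNF144A (-2.84 ± 0.38), SOST, the Wnt inhibitor sclerostin (-2.78 ± 0.19), and the galectin LGALS12 (-2.72 ± 0.54) fell. GATA3, a luminal transcription factor, fell as well (-1.10 ± 0.09, from 26.2 ± 2.16 to 12.2 ± 0.905 CPM), while 2 other luminal markers, KRT8 and KRT19, rose; the list summed to 759.9 to 813.9 TPM in control and 916.5 to 995.5 in dSAP, with 2 of 8 at 0 in all 6 libraries.

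Chemokines that draw neutrophils fell. Of 16 tested cytokines and chemokines 8 fell and 3 rose (5 and 1 in the fit on all 24 libraries), with a median of -0.49. CXCL1 was at 35.9, 34.9 and 38.8 CPM in control and 4.98, 4.82 and 4.83 in dSAP, a change of -2.90 ± 0.08 (adjusted p = 6.55e-15), and CXCL8 was at 97.4, 87.9 and 95.7 and 22.8, 21.7 and 20.6 CPM, a change of -2.11 ± 0.07. CSF1, the macrophage growth factor, fell too (-1.71 ± 0.07, from 242 ± 27.1 to 74.4 ± 4.93 CPM). No dSAP library reached a control library in these 3 genes, which were chosen on the condition of separate replicates. IL24 went the other way, with a rise of 2.02 ± 0.15. SAA1 and SAA2, acute phase proteins that are near-identical and so uncertain one by one, fell, with changes of -1.20 and -1.82 on the log2 scale, from 2811 ± 333 to 1232 ± 69.5 TPM and from 1699 ± 173 to 472 ± 47.6 TPM. In the NF-kB list 7 of 14 fell and 2 rose: NFKBIA (-0.58 ± 0.04) and NFKBIZ (-0.63 ± 0.06) fell, while TNFAIP3 (0.95 ± 0.06) and TRAF1 (0.40 ± 0.06) rose. The monocyte marker CD14 fell (-0.91 ± 0.14). Myeloid markers summed to 16.3 to 20.0 TPM in control and 10.7 to 14.2 in dSAP, with 2 of 5 at 0 in all 6 libraries.

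Interferon response genes were split, with more falls than rises. Of 29 tested 15 fell and 7 rose, with a median of -0.35. By at least 2-fold 2 fell and 4 rose, so the larger rises named next do not stand for the list. RIGI, a sensor of viral RNA, was at 25.9, 28.7 and 24.1 CPM in control and 153, 144 and 144 in dSAP, a rise of 2.49 ± 0.06, and GBP1, a GTPase that interferon induces, was at 37, 36.6 and 38.7 and 146, 143 and 147 CPM, a rise of 1.96 ± 0.05. GBP2 rose by 1.09 ± 0.06 and ISG15, a ubiquitin-like modifier, by 1.01 ± 0.06. B2M, the light chain of MHC class I, fell (-0.46 ± 0.05, from 4778 ± 340.4 to 3621 ± 284 TPM). In dSAP against control on matrigel the balance differed. There 15 of 31 tested rose and 8 fell, with a median of 0.18, beside 21.9% and 23.7% of all genes.

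Amino acid stress genes and lipid synthesis genes rose by modest amounts. Of 22 tested ATF4 targets 15 rose and 2 fell, with a median of 0.40: CHAC1 rose by 1.61 ± 0.11, VLDLR by 1.06 ± 0.08, PSAT1, an enzyme of serine synthesis, by 1.05 ± 0.08, and SESN2 by 0.82 ± 0.08. ER chaperones followed less, with 9 of 17 up and 2 down (median 0.15), led by DNAJB9 (0.75 ± 0.05), HERPUD1 (0.56 ± 0.06), ATF6 (0.39 ± 0.04) and HYOU1 (0.38 ± 0.04). In cholesterol and fatty acid synthesis 17 of 26 rose and 4 fell (11 and 3 in the fit on all 24 libraries), with SC5D (0.49 ± 0.04) higher, although SREBF1, a factor that drives this set, fell (-0.84 ± 0.06).

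Immediate early genes, which growth signals switch on through SRF and other factors, gave 6 rises and 2 falls of 19, with a median of 0.42. FOSB was at 0.657, 0.683 and 0.42 CPM in control and 4.88, 6.2 and 5.79 in dSAP, a rise of 3.25 ± 0.18. ATF3 rose by 1.09 ± 0.08 and DUSP5, an ERK phosphatase, by 0.55 ± 0.05, while DUSP6, another, fell (-0.88 ± 0.04). In the EGF family, EGF rose by 2.40 ± 0.10 from 3.84 ± 0.44 to 20.2 ± 1.5 CPM, HBEGF by 0.67 ± 0.07 and EREG by 0.75 ± 0.07. In that family 3 of 12 rose and 1 fell, beside 25.3% and 23.5% of all genes. Of 6 tested caveolae genes 2 rose and 2 fell, with CAVIN2 (0.97 ± 0.06) and CAVIN1 (0.17 ± 0.03) up and CAV1 (-0.35 ± 0.04) and EHD2 (-0.30 ± 0.06) down.

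Glycolysis genes were lower. Of 28 tested glycolysis and HIF targets 16 fell and 4 rose, with a median of -0.37. ENO1, enolase, was at 3406, 2974 and 3447 CPM in control and 1937, 2248 and 2099 in dSAP, a change of -0.65 ± 0.06, and GAPDH at 2208, 2098 and 2252 and 1481, 1689 and 1552 CPM, a change of -0.47 ± 0.05. PFKL (-0.50 ± 0.05) and PGAM1 (-0.34 ± 0.04) fell too. Among nuclear genes of the respiratory chain 3 of 23 rose and 2 fell (median 0.02), which was 1 and 1 in the fit without that matrigel library. Ferritin and NRF2 targets gave 12 falls and 1 rise of 18, with FTH1 (-0.60 ± 0.05) and FTL (-0.38 ± 0.05), the iron storage chains, GPX4, which guards lipids from peroxidation (-0.91 ± 0.04), and SOD2 (-1.08 ± 0.05) lower. Of 5 tested metallothioneins, metal-binding proteins with near-identical copies, 4 fell and 0 rose (2 fell in the fit on all 24 libraries), with MT1E at -1.32 ± 0.06 and MT2A at -1.04 ± 0.11.

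Cell division, ribosome and histone genes were lower, most of them by under 2-fold. Of 30 tested mitosis genes 22 fell and 0 rose (median -0.27), among them KIF20A (-0.76 ± 0.06), NUSAP1 (-0.60 ± 0.04), CDC20 (-0.45 ± 0.05) and KIF11 (-0.44 ± 0.04). Of 28 DNA replication genes 15 fell and 0 rose (median -0.19), with TYMS (-0.47 ± 0.04), RRM2 (-0.41 ± 0.04), MCM5 (-0.36 ± 0.05) and MCM7 (-0.33 ± 0.05) lower. In the fit on all 24 libraries 5 mitosis and 5 replication genes fell. Among cyclins and CDK inhibitors 10 of 17 fell and 5 rose (4 and 3 in the fit on all 24 libraries), CCND1 (-0.33 ± 0.04) and CCNB2 (-0.36 ± 0.05) falling and CDK2 (0.30 ± 0.05) rising.

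Of 31 cytosolic ribosomal protein genes 29 fell and 0 rose (median -0.35), among them RPLP0 (-0.53 ± 0.04) and RPS2 (-0.48 ± 0.03). EEF1A1, an elongation factor with many processed copies, fell as well (-0.44 ± 0.04, from 9227 ± 382 to 7000.1 ± 280.1 TPM). Replication-dependent histones, whose mRNAs lack a poly(A) tail and are near-identical in part, fell in 12 of 12 tested (median -0.79, 6 of 12 in the fit on all 24 libraries). H2AC11 was at 163, 151 and 173 CPM in control and 94.8, 89 and 84.7 in dSAP, a change of -0.86 ± 0.05, and H4C8 at 101, 96 and 106 and 57.6, 53.7 and 53.7 CPM, a change of -0.88 ± 0.05. Ribosomal protein genes took 1.44% to 1.48% of counts in control and 1.08% to 1.11% in dSAP, and these histones 0.179% to 0.191% and 0.106% to 0.114%. Mitochondrial genes took 0.890%, 0.856% and 0.398% in the control libraries and 0.632%, 0.686% and 0.549% in the dSAP libraries. The part that the larger share of the most abundant genes plays in these shares was not tested. S100A6, a calcium-binding protein, had the largest loss of TPM, from 8615 ± 987 to 4982 ± 154 (-0.78 ± 0.06).

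The dSAP line was then set directly against the line that overexpressed WT MRTF-A in plates. Of 14330 genes 1848 were higher in dSAP (12.9%) and 2196 lower (15.3%), 92 (0.642%) and 127 (0.886%) of them by at least 2-fold. On log2(TPM + 1) the median of all genes moved to 0.10 and the split became 2477 higher and 777 lower, so small differences in this comparison depend on the scaling. MRTFA RNA was itself higher in dSAP, by 0.95 ± 0.05, so the form of MRTF-A and the amount of its RNA cannot be told apart.

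Muscle actins and their partners were lower in dSAP than in WT, with exceptions. ACTA2 was at 681, 657 and 669.5 CPM in the WT libraries against 92.4, 132 and 123 in dSAP, a difference of -2.53 ± 0.15. TAGLN was at 1279, 1281 and 1286 CPM in WT and 298, 314 and 303 in dSAP, a difference of -2.07 ± 0.16, and ACTG2 was at 1074, 1055 and 1042 and 476, 592 and 527 CPM, a difference of -0.99 ± 0.20. The difference in ACTG2 was not called on log2(TPM + 0.1) or in the fit on all 24 libraries (adjusted p up to 0.154). In all 3 the WT libraries lay above every dSAP library and dSAP above every control library. Of 10 contractile regulators 7 were lower and 1 higher in dSAP (6 and 0 in the fit on all 24 libraries). KCNMB1 was at 24.9, 24.9 and 25.8 CPM in WT, a difference of -3.92 ± 0.15. MYL7 went the other way, at 47.8, 46.5 and 46.6 CPM in WT and 108, 138 and 118 in dSAP, a difference of 1.37 ± 0.24, and CNN2 was higher in dSAP by 0.38 ± 0.04. MYL9 (0.10 ± 0.16, adjusted p = 0.689) and ZYX (-0.05 ± 0.04, adjusted p = 0.288) did not pass.

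**Figure D4:**
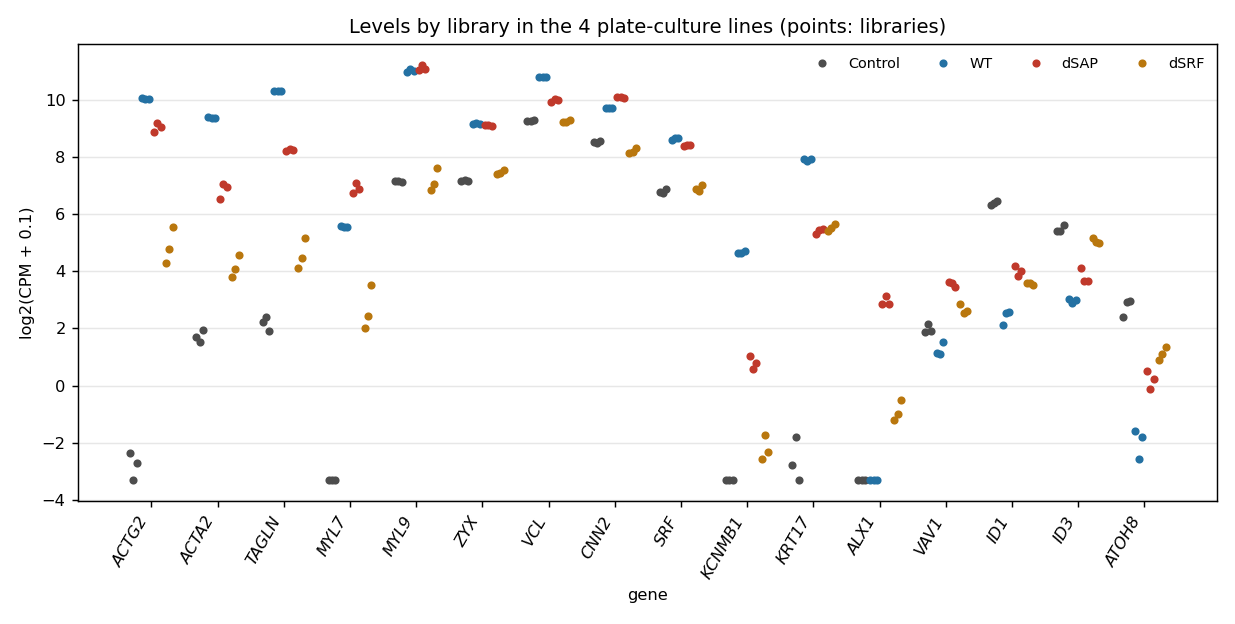
Points are single libraries, as log2(CPM + 0.1), for 16 named genes in the control, WT, dSAP and dSRF lines in plates. ACTG2, ACTA2, TAGLN, KCNMB1 and KRT17 are highest in WT, MYL7, ALX1 and VAV1 are highest in dSAP, and ID1, ID3 and ATOH8 lie between control and WT in dSAP.

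Adhesion, turnover and matrix lists held more lower than higher members. In dSAP against WT 16 of 25 focal adhesion genes were lower and 3 higher (11 and 3 on log2(TPM + 1)), VCL among them (-0.82 ± 0.04). Of 20 turnover genes 15 were lower and 0 higher (9 and 0), and of 26 matrix genes 13 were lower and 2 higher (10 and 2), with TNC at -1.06 ± 0.19 and CCN2, a YAP/TEAD list member, at -1.16 ± 0.06. SRF differed by -0.24 ± 0.04, a call not made on TPM values or in the fit on all 24 libraries (adjusted p up to 0.0754). KRT17 was at 244, 234 and 244 CPM in WT, a difference of -2.49 ± 0.06, and 7 of 11 keratins were lower and 1 higher (3 and 0 in the fit on all 24 libraries). ER chaperones gave 15 lower and 0 higher of 17 (8 and 0 on log2(TPM + 1), 10 and 0 with all 24 libraries), ATF4 targets 15 lower and 2 higher of 22 (11 and 2), glycolysis and HIF targets 20 lower and 0 higher of 28 (11 and 0; 13 and 0 with all 24 libraries), and cytokines and chemokines 11 lower and 1 higher of 16 (8 and 1, and 2 and 1 in the fit on all 24 libraries), CXCL8 among them (-0.80 ± 0.07).

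Where dSAP exceeded WT, ALX1 led the called genes with a symbol, at least 1 CPM in a group and separate replicates. It had 0 counts in all 3 WT libraries. VAV1 was at 2.09, 2.03 and 2.77 CPM in WT and 12.4, 11.9 and 10.7 in dSAP, a difference of 2.34 ± 0.15, with every WT library below every control library. GRAMD1B, a sterol transporter, was at 0.871, 0.473 and 1.05 and 8.49, 9.65 and 10.9 CPM, a difference of 3.57 ± 0.19. ATOH8 (2.64 ± 0.39), ID1 (1.62 ± 0.11) and ID3 (0.87 ± 0.12) were higher in dSAP than in WT although below control, with ID1 at 4.3, 5.68 and 5.79 CPM in WT. KRT34 (3.20 ± 0.58), SYTL5 (2.73 ± 0.49), MMP8, neutrophil collagenase (2.46 ± 0.41), and DIO2, which activates thyroid hormone (2.18 ± 0.34), completed the largest 8 under those conditions. Division genes were higher as well: 12 of 30 mitosis genes and 16 of 28 replication genes were higher, 0 and 1 lower, with medians of 0.13 and 0.21 (0 and 2 higher in the fit on all 24 libraries, and 7 mitosis genes without library 1 of dSAP). At the low end, KCNH5 (-5.51 ± 0.68), IRAG1 (-3.87 ± 0.41), SLAMF7 (-2.79 ± 0.44) and SHC3 (-2.57 ± 0.41) were lower in dSAP, where none of the 4 was called against control. TRIM26, of the MHC region, is uncertain. In the fit on all 24 libraries ATOH8, CNN2, CXCL8, ID1, ID3, KRT34 and MRTFA were not called against WT, and SHC3 was not called on log2(TPM + 1).

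Against the dSRF line the contractile genes were higher in dSAP. In the direct test 5176 genes were higher (36.1%) and 5298 lower (37%). MRTFA RNA was itself at 8499, 9322 and 8757 CPM in dSAP and at 3083, 3069 and 3253 in dSRF. The form of MRTF-A and the amount of its RNA cannot be told apart here either. All 5 actins and 10 of 10 contractile regulators were higher in dSAP, with medians of 3.27 and 1.65. ACTB was at 3894, 4023 and 4971 CPM in dSRF, a difference of 2.39 ± 0.08, and SRF at 118, 113 and 129 CPM, a difference of 1.49 ± 0.05. ACTG2 was at 19.5, 27.3 and 46.6 CPM in dSRF, a difference of 4.06 ± 0.25, MYL7 at 3.91, 5.28 and 11.3 CPM, a difference of 4.08 ± 0.30, and MYL9 at 115, 133 and 197 CPM, a difference of 3.91 ± 0.18. All 30 mitosis genes were higher in dSAP, and KRT8 was lower (-2.87 ± 0.04). The largest differences were ranked among called genes with a symbol, at least 1 CPM in a group and separate replicates. IGFL1, CYP4B1, KLHDC7A, LCE3D and CRCT1, the 5 largest downward, had 0 counts in dSAP and in control. CPA3, PRRC2A (MHC region, uncertain) and GPR183 completed the 5 largest differences upward with MYL7 and ACTG2.

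On matrigel the dSAP line was compared with control cells of the same culture, which share no library with the plate comparison. The titles name the same lines in both cultures. The overlap therefore cannot tell an effect of dSAP from any other difference between the lines. Of 14170 genes 3102 were higher (21.9%) and 3361 lower (23.7%), 549 (3.87%) and 208 (1.47%) of them by at least 2-fold. Of the 549 genes at least 2-fold higher in plates and tested in both, 367 were at least 2-fold higher on matrigel (66.8% of the plate list, 68.7% of the 534 of the matrigel list), where 3.86% of all genes were. Of the 325 at least 2-fold lower in plates 116 were so on matrigel (35.7% of the plate list, 62.4% of the 186 of the matrigel list), against 1.34% of all genes. MRTFA was at 30.1, 29.5 and 29.9 CPM in these control libraries and 10720, 10250 and 10820 in dSAP. Of 10 tested contractile regulators 7 rose and 1 fell there (median 1.67), and 5 of 5 actin isoforms rose. CNN1, which rose in plates, was at 0, 0 and 0.102 CPM in matrigel control and 0.247, 0.0507 and 0.113 in matrigel dSAP, so that it was near absent in both (adjusted p = 0.198). Among the genes named for plates, ACTA2 rose on matrigel by 6.13 ± 0.18, TAGLN by 4.05 ± 0.14, MYL9 by 4.08 ± 0.07, ACTB by 1.95 ± 0.05 and SRF by 1.79 ± 0.04.

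The difference between the effects in the 2 cultures was tested as an interaction, and 573 genes had a more positive effect on matrigel (4.04%) and 827 a more negative one (5.84%). On log2(TPM + 1) 516 genes passed, 283 more positive and 233 more negative, and in the fit on all 24 libraries 350 passed. Leaving out 1 library also turned the split, to 672 more positive and 501 more negative without plate control library 2 and to 724 and 533 without plate dSAP library 2, so both the count and the split depend on these choices. The falls of ID1, ID3 and ATOH8 were smaller on matrigel. ID1 was at 224, 204 and 205 CPM in control and 153, 170.3 and 159 in dSAP there, a change of -0.39 ± 0.06, and the difference from plates was 1.99 ± 0.10 (adjusted p = 4.22e-08). ID3 changed by -0.42 ± 0.07 on matrigel (difference 1.23 ± 0.12) and ATOH8 by -0.76 ± 0.13 (difference 1.87 ± 0.26). The fit on all 24 libraries called none of these 3 differences (adjusted p up to 0.461), nor those of CCN1, NPPB, SAA1 and TAGLN given next. The matrigel groups of ID1 did not overlap, and all 6 matrigel values lay above the plate value of every dSAP library.

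Contractile and adhesion genes differed in both directions. ZYX rose by 2.65 ± 0.04 on matrigel (difference 0.71 ± 0.05) and CCN1 by 1.77 ± 0.05 (difference 0.96 ± 0.07), more than in plates, from 138, 146 and 136 to 484, 491 and 457 CPM for CCN1. TAGLN (difference -2.05 ± 0.24) and TNC (-1.64 ± 0.18) rose by less than in plates: TNC was at 53.6, 63.7 and 60.5 CPM in matrigel control and 541, 509 and 520.2 in matrigel dSAP. NPPB, the natriuretic peptide precursor and an SRF target of heart muscle, was at 9.01, 8.38 and 8.96 and 152, 167 and 168 CPM in control and dSAP plates, and at 0, 0.12 and 0 and 10.2, 11.2 and 10.2 CPM on matrigel, a difference of 3.68 ± 0.49 on counts that are near 0 in matrigel control. FOSB did not pass on matrigel (-0.01 ± 0.20, adjusted p = 0.966; difference -3.27 ± 0.30), and SAA1 (-0.14 ± 0.14, adjusted p = 0.467; difference 1.06 ± 0.19) did not pass there either. PLAT fell in plates and rose on matrigel (0.34 ± 0.11, difference 1.79 ± 0.15), from 53.1, 62 and 52.8 to 69.6, 63.1 and 80.7 CPM.

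**Figure D5:**
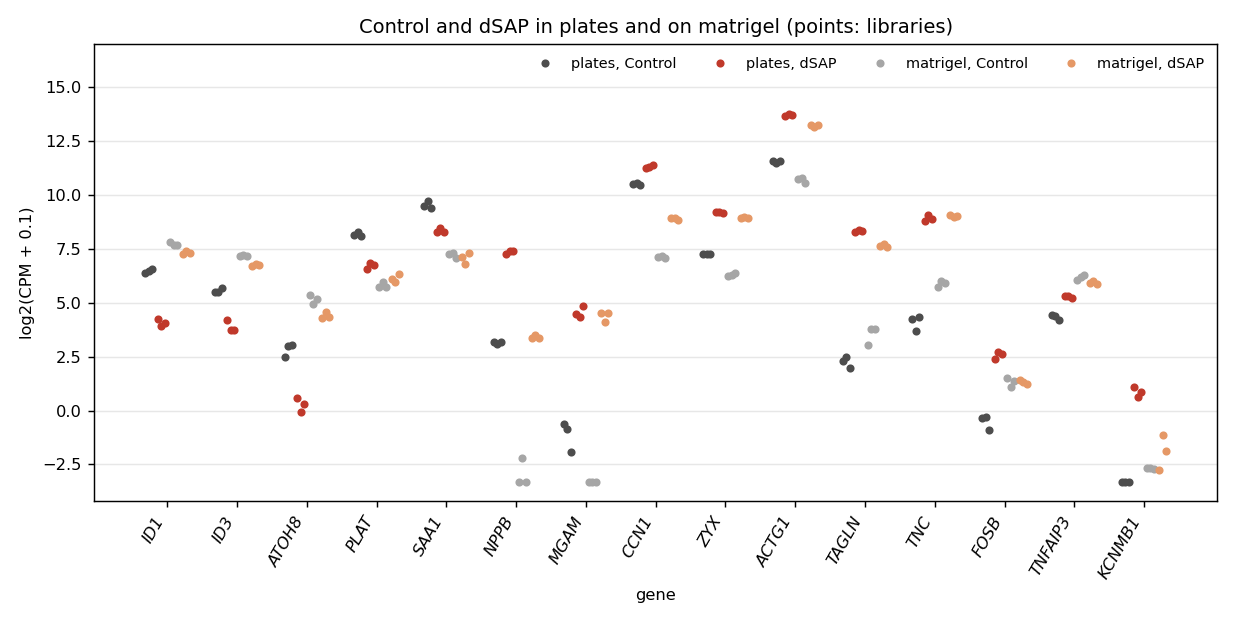
Points are single libraries, as log2(CPM + 0.1), for 15 named genes in control and dSAP cells in plates and on matrigel. The gap between control and dSAP is narrower on matrigel for ID1, ID3, ATOH8, TAGLN, TNC and FOSB and wider for CCN1, ZYX and NPPB.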

How the data were processed

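RNA was extracted with RNeasy Mini Plus and prepared with Illumina Stranded Total RNA with Ribo-Zero Plus (per the labels' protocols); the labels also name polyA RNA as the molecule. The authors deposited estimated counts and TPM per gene for 24 libraries. Salmon 11.3, FastQC and hg38 are named in the submitters' processing notes, and no source used here gives the annotation.

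Of the deposited values, 22.65% of the estimated counts were not whole and were rounded. The 12 plate libraries of 4 groups were fitted with edgeR 4.0.16 (R 4.3.3) by its quasi-likelihood test after filterByExpr and TMM scaling, with 8 residual degrees of freedom, and p-values were adjusted by Benjamini-Hochberg over 14330 genes. CPM uses the TMM library sizes. Control and dSAP libraries of both cultures were fitted likewise (14170 genes). The standard error is the log2 fold change divided by the root of the F statistic. Bounds on a fold use a floor of 3 counts over the 3 control libraries, and that floor covers counting error only. The standard error draws on the spread between libraries that the fit estimates. Where a group holds few counts, as for KRT17, LMOD1 and KCNH5, it can be smaller than counting error alone and is not a full measure of uncertainty. Groups came from titles. Named genes were, with at least 1 CPM and separate replicates, the 12 largest rises and falls, the 8 largest TPM gains and losses, up to 4 list members of lowest p, the 8 and 5 largest per direction in the other comparisons (in the culture comparison without the condition on separate replicates), and 17 genes fixed by name. The members, lists and tests were chosen with earlier results of these data known. Alternatives were DESeq2 1.42.0, other size factors, no filter, limma 3.58.1 on log2(TPM + 1) and log2(TPM + 0.1), a replicate block, other sets of libraries and leaving out each library. Positions are those of GENCODE 29 for GRCh38.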

Additional observations from a re-analysis of the deposited data

Results flagged for a closer look

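For 26 named genes the effect of dSAP against control differed between the cultures by at least 2-fold in the interaction test of edgeR's quasi-likelihood fit, and each value is the matrigel effect less the plate effect on the log2 scale. The BMP-responsive genes were less reduced on matrigel: ID1 (1.99), ID3 (1.23) and ATOH8 (1.87). The acute phase genes SAA1 (1.06) and SAA2 (1.49), the retinal reductase DHRS3 (1.59) and GGT5 (2.24) fell in plates and fell by less or did not pass on matrigel. The monocyte marker CD14 (1.25) and PLAT (1.79) fell in plates and rose on matrigel. TAGLN (-2.05), TNC (-1.64), SERPINE2 (-1.72), KCNMB1 (-6.33), and FOSB (-3.27) rose in plates and rose by less or did not pass on matrigel, while GDF15 (-1.72) and TNFAIP3 (-1.22) rose in plates and fell on matrigel. The fitted differences of CDH3 (1.14) and IL24 (1.03) were positive, but neither was called with DESeq2, on TPM values, with the replicate block, in the fit on all 24 libraries or when any of several single libraries was left out (adjusted p up to 0.89 and 0.911). The other differences were those of MGAM (5.66), FLT1 (4.03), NPPB (3.68), WNT3 (3.35), DPY19L2P1 (-4.33), SPNS2 (-2.92) and PCLO (-2.12). KCNMB1, MGAM and FLT1 had 0 counts in the control libraries of 1 culture, so the sizes of these differences depend on the fit. TRIM26 (9.66) lies in the MHC region and is uncertain. DHRS3, PLAT, FOSB, CD14, TNC and PCLO passed under every alternative run, and SAA1, SAA2, ID1, ID3, ATOH8, TNFAIP3, GDF15, TAGLN and NPPB under every one except the fit on all 24 libraries. Among the rest, DPY19L2P1 was not called without control library 2 on matrigel (adjusted p = 0.0798), SERPINE2 on log2(TPM + 1) (0.0724), KCNMB1 and GGT5 on 1 TPM scale each and with all 24 libraries (up to 0.0533 and 0.14), and SPNS2 on TPM values and with all 24 libraries (up to 0.146). FLT1, MGAM, WNT3 and TRIM26 were not called under 8 or more alternatives each (adjusted p up to 0.963, 0.942, 0.08 and 0.11).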

How the results depend on the processing

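The change of MRTFA was 7.89 to 7.97 when each library was left out in turn. Calls in dSAP against control numbered 6177 to 6573 with 1 library left out, 6983 with DESeq2's size factors, 6710 with no filter, 6741 with DESeq2, 5195 and 5147 on log2(TPM + 1) and log2(TPM + 0.1), 6548 with only the 6 libraries compared and 4937 with all 24. Against WT they were 3099 to 3779 with 1 library left out and 1919 with all 24 libraries, and against dSRF 10093 to 10250 with 1 left out. The culture difference gave 974 to 1517 with 1 left out, 516 on log2(TPM + 1), 487 on log2(TPM + 0.1) and 350 with all 24. With the replicate number as a block the counts were 7070, 4174 (WT), 10501 (dSRF) and 1131 (culture). Deviations of same-numbered control and dSAP plate libraries correlated at -0.0899, -0.202 and -0.024, so the numbers were not taken as pairs. Of the named genes called, 162 of 190 stayed called in dSAP against control under every alternative, 64 of 129 against WT, 162 of 185 against dSRF and 17 of 83 for the culture difference. Directions reversed for RUNX2 against dSRF (-0.0087 on log2(TPM + 0.1), -0.0085 on log2(TPM + 1)), and for the culture difference of MGAM (-0.0599) and FLT1 (-0.24) on log2(TPM + 1). The cause of these changes was not tested. Genes under about 1 CPM rest on few counts in both groups.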

Other observations

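Processed copies of actin genes moved with their parents. Of 7 tested actin pseudogenes 6 were called higher in dSAP than in control in plates and 0 lower, at mean levels of 0.177 to 1.98 CPM in dSAP. Whether their reads come from the copies or from the actin mRNAs was not tested. The endothelial markers summed to 78.7 to 82.4 TPM in control and 69.4 to 80.7 TPM in dSAP. KDR, the VEGF receptor of endothelium, rose within that list (1.19 ± 0.16, from 2.6 ± 0.229 to 5.95 ± 0.119 CPM), and EGFL7 fell (-0.23 ± 0.07), a call that was not made on TPM values, in the fit on all 24 libraries or without dSAP library 1 (adjusted p up to 0.153).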
